A study of Mus musculus with 42 samples.

Results

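The genes described here are the growth factor ligands, receptors and binding proteins of 21 mouse mammary tumours. They were taken by name: every symbol in the platform annotation that begins as a Wnt, Frizzled (Fzd), Sfrp, Dkk, Fgf, Igf, Tgfb, Bmp, Pdgf, Vegf or inhibin (Inhb) gene, together with Egfr and Areg. The array carried 119 such symbols. The 45 with a value on both arrays of at least 15 tumours were analysed, among 7629 genes that passed the same filter. The filter asks only for measured values and not for differences. A gene can still pass it through the tumours in which it is high, as stated below for Wnt7b, Tgfbr2, Igf1r and Tgfbr3. Of the other 74 symbols, 29 were measured on both arrays of 10 to 14 tumours and the rest in fewer.

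Each tumour was hybridised on 2 two-colour arrays of long oligonucleotide probes, with the dyes exchanged, against a universal mouse reference RNA. The tumours descended from mammary neoplasms of FVB/N mice carrying a c-Myc transgene driven by the promoter of Wap, a gene of the milk-producing mammary cell. In vivo selection had given 4 kinds of tumour line: glandular, solid/comedo without lung metastases, solid/comedo with lung metastases, and spindle-shaped (mesenchymal). The labels give each array's tumour number but not its line, so the groups compared were the 21 tumours themselves, all from the same Myc background, with no normal mammary tissue among the samples used here. The labels name no age and no treatment.

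Values are log2 ratios to the reference, after subtraction of each array's median. Which array of a pair carried the tumour in which dye is not given, so the 2 arrays were turned to agree and the sign of the whole data set was fixed by taking Myc as positive. All signs could therefore be reversed together: where a tumour is called high in a gene here, it would be called low in that gene and in every other gene named as high in it. The size of a difference and the agreement between genes do not depend on this choice. An array measured 8600 to 21328 of 22800 probes, and the 2 arrays of tumour 656 did not run opposite before turning as those of the other 20 tumours did (their correlation was 0.0743). The p-value of a difference between tumours sets it against the disagreement of repeat hybridisations, which is technical and leaves out the spread between animals of a line. For the slopes over tumours and the correlations of gene pairs given below, the p-value instead uses the spread over tumours, taken as independent. Tumours of the same line may not be independent, and the line of each tumour is not given. Where only a single array of a tumour had a value for a gene, that value stands as its mean, with a larger error than the SE printed. Because whole tumours were measured, fewer cells of a type and less RNA per cell cannot be told apart.

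Growth factors are secreted proteins read by receptors on the cell surface. FGF, IGF, PDGF, VEGF and EGF ligands act through receptor tyrosine kinases, TGF-beta and BMP ligands through serine/threonine kinase receptors that phosphorylate SMAD proteins, and Wnt ligands through Frizzled receptors and beta-catenin. Binding proteins such as the IGFBPs, and inhibitors such as Sfrp and Dkk, hold the ligands or block their receptors. In the mammary gland these signals pass between the epithelium and the surrounding stroma and control branching, survival and involution.

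To show the DNA at genes whose levels separated the tumours clearly, the 120 bases before the start of 5 of them are printed 5′ to 3′ on the gene's strand, from RefSeq on GRCm38.p6. The choice was limited to genes with a promoter window, and Fgfr1, whose levels also separated the tumours clearly, had none to print. Capitals mark any of 3 motifs, searched on either strand. The first is the GC box, GGGCGG. The second is the core promoter element TATAAA. The third is the E-box bound by Myc, with the letters CACGTG. The windows are chr11:99041124-99041243 (plus strand) for Igfbp4, chr5:77408046-77408165 (minus) for Igfbp7, chr7:25686882-25687001 (plus) for Tgfb1, chr13:56609466-56609585 (plus) for Tgfbi and chr9:116175364-116175483 (minus) for Tgfbr2.
Igfbp4: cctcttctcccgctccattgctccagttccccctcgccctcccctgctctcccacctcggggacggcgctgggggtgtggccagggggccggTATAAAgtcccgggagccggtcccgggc
Igfbp7: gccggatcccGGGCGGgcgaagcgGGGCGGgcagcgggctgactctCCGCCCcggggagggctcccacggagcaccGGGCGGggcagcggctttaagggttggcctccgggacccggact
Tgfb1: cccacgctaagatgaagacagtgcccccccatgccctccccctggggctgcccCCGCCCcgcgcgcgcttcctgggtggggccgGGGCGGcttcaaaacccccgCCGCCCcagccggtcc
Tgfbi: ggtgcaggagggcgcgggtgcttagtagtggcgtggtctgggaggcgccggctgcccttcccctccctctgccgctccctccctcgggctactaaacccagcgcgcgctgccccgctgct
Tgfbr2: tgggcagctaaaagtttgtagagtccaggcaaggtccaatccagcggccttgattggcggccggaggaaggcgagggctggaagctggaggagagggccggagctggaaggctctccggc

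The Igfbp4 window held the TATAAA element once and no GC box, that of Igfbp7 held 4 GC boxes, and that of Tgfb1 held 3. The windows of Tgfbi and Tgfbr2 held none of the motifs. Of the 45 genes, 34 had an entry in the promoter table. A GC box was found in 19 of the 34 windows, against 26.9% of all 27025 promoters of this length, TATAAA in 3 against 6.76%, and the E-box in 3 (Fzd9, Igf2r and Tgfb2) against 3.64%. In the Fzd9 window the E-box and a GC box share a letter; in the 5 windows printed no motif overlaps another. These letter matches describe the DNA and are not evidence of binding.

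The level of 20 of the 45 genes differed between tumours (limma moderated F test, Benjamini-Hochberg adjusted p under 0.05 over 7629 genes), which is 44.4% against 25.9% of all genes tested. Tumour means of the 45 genes had a median SD of 0.892 log2 units, against 0.694 for all genes. By role, the 20 were 3 of 3 Wnt ligands, 1 of 2 Frizzled receptors, 2 of 3 Wnt inhibitors, 3 of 5 IGF binding proteins and 1 of 3 IGF ligands and receptors. They also included 3 of 5 TGF-beta ligands and receptors, 2 of 3 PDGF ligands, 2 of 6 genes with a BMP ligand symbol, 2 of 3 genes of the FGF receptor group, and Tgfbi. None of the 3 FGF ligands, 3 VEGF ligands or 2 BMP receptors passed, nor did Pdgfra, Egfr or Igf2os, the antisense transcript of Igf2. Without adjustment 28 of the 45 had p under 0.05.

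**Figure D1:**
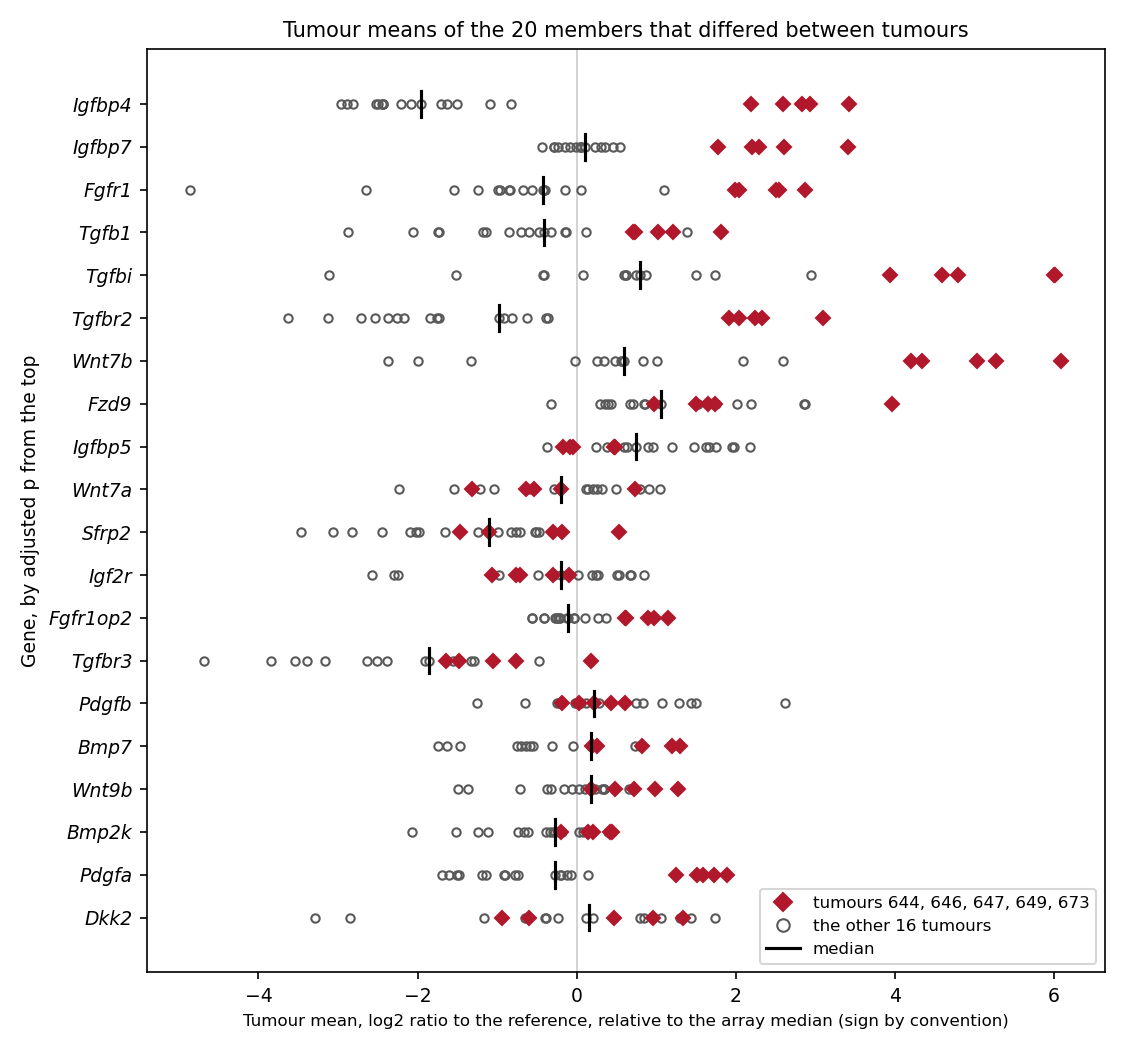
Tumour means (x axis, log2 ratio to the reference relative to the array median, sign by convention) of the 20 genes that differed between tumours, ordered by adjusted p from the top. Diamonds are tumours 644, 646, 647, 649 and 673, circles the other 16, and bars the median; in the rows of Igfbp4, Igfbp7, Fgfr1, Tgfbi, Tgfbr2, Wnt7b, Fgfr1op2 and Pdgfa the 5 diamonds lie to the right of every circle.

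**Figure D2:**
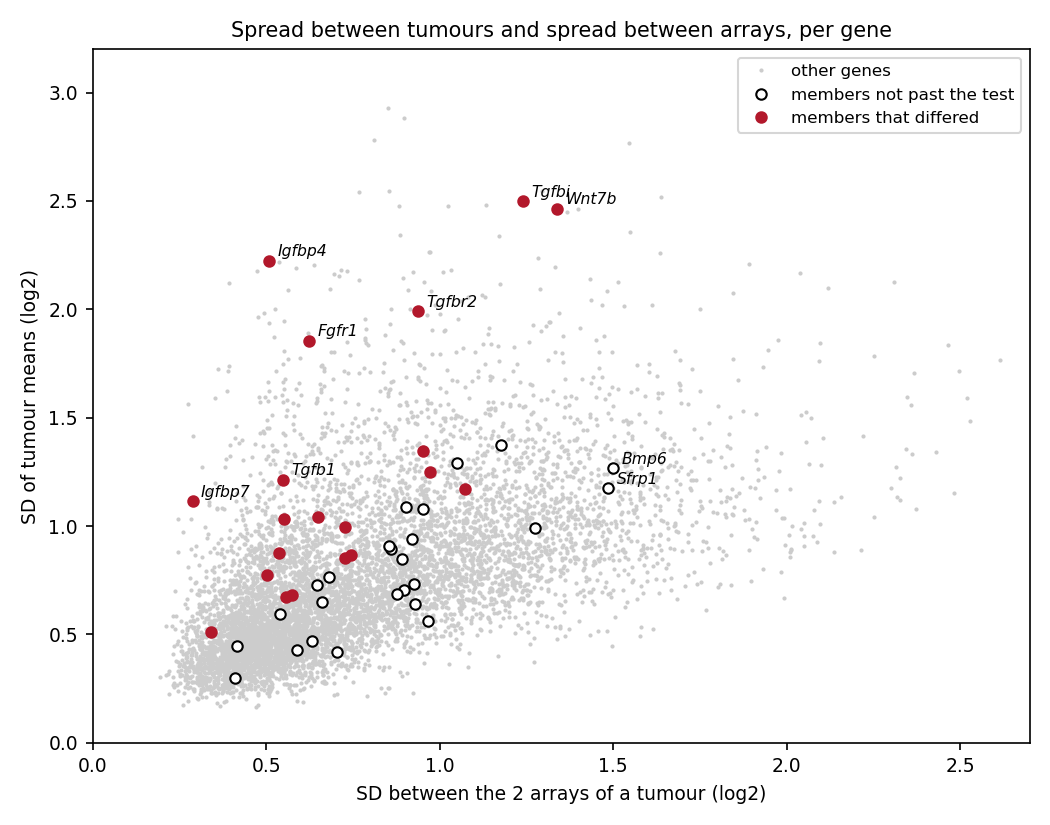
Standard deviation of tumour means (y axis, log2) against the standard deviation between the 2 arrays of a tumour (x axis, log2) for each gene; small dots are other genes, filled circles the 20 genes of the set that differed and open circles those that did not. 8 genes outside the set lie beyond the axes; Igfbp4 has a large spread between tumours for its spread between arrays, while Bmp6 and Sfrp1 vary most between arrays among the 45.

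The IGF binding proteins gave the clearest differences. Igfbp4, a secreted protein that binds IGFs and is cut by a protease to release them, ran from -2.97 in tumour 660 through a median of -1.96 to 3.43 in tumour 646 (SE of a tumour mean 0.37, 2 arrays; adjusted p = 4.7e-10). Its 2 arrays read 3.39 and 3.47 in tumour 646, and -3.27 and -2.66 in tumour 660. Igfbp7, a low-affinity IGF binder laid down in vessel walls and matrix, ran from -0.44 in tumour 655 through 0.10 to 3.41 in tumour 644 (SE 0.25; adjusted p = 5.0e-08). For both genes tumours 644, 646, 647, 649 and 673 were the highest 5, with a gap to the rest: 2.19 to 3.43 against at most -0.82 for Igfbp4, and 1.78 to 3.41 against at most 0.54 for Igfbp7. Igfbp5, which is made in large amounts when the mammary gland involutes, followed another order, from -0.37 in tumour 669 through 0.75 to 2.18 in tumour 664 (SE 0.37; adjusted p = 0.00313). None of the 5 tumours just named was above the median there.

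The order of Igfbp5 moved with the slides. In the 8 tumours with at least 1 array on the second slide series it was 0.90 to 2.18, and in the other 13 it was -0.37 to 1.20. With the slide series as a block its adjusted p was 0.158. In tumours 660, 664 and 665, which have 1 array on the second and 1 on the third series, the second-series array read 2.50, 2.22 and 0.87 and the third-series array 0.99, 2.13 and 2.07. What a slide series stands for is not given beyond the running numbers of the slides, and 17 of the 21 tumours have both arrays on one series. Igfbp6, which prefers IGF2, had values from -3.70 to 0.19 (adjusted p = 0.0650), and Igfbp3, the main carrier of IGFs in blood, was above 0 in all 21 tumours, from 0.79 in tumour 662 to 3.76 in tumour 644 (SE 0.60; adjusted p = 0.407).

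Igf2r, the receptor that takes IGF2 up for breakdown, ran from -2.58 in tumour 638 through -0.19 to 0.84 in tumour 656 (SE 0.50; adjusted p = 0.0124). It was -0.19 to 0.84 in the tumours with a second-series array and -2.58 to 0.24 in the others, and its adjusted p was 0.0894 with the series as a block, 0.0544 after quantile normalisation and 0.156 on the deposited scale. Igf2, the fetal growth factor of the family, lay between -2.61 (tumour 663) and 2.74 (tumour 660; adjusted p = 0.0622; 0.00839 without tumour 656). Each of these extreme values rests on a single array. Igf1r, the kinase that transmits both IGFs, was measured in 19 tumours, from -2.76 (tumour 656, on a single array) to 0.64 (adjusted p = 0.194). Its adjusted p was 0.000455 with the slide series as a block and 0.000303 or 0.00159 without one or the other array of tumour 665, whose 2 arrays read 0.22 and -4.05.

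Among FGF genes, Fgfr1, a receptor tyrosine kinase found in mesenchyme and in many epithelial tumours, ran from -4.85 in tumour 638, where 1 array gave a value, through -0.42 to 2.87 in tumour 647 (SE 0.44; adjusted p = 1.1e-06). The 5 tumours high for Igfbp4 were again the highest, at 1.99 to 2.87, and the next was tumour 656 at 1.10. Fgfr1op2, a protein named for its fusion with FGFR1 in blood cancers and not itself a receptor, spanned a narrower range, from -0.57 in tumour 669 to 1.14 in tumour 646 (SE 0.28; adjusted p = 0.0150), and lost its call after quantile normalisation (0.121) and after centring on all measured probes (0.0831). The 3 ligands measured, Fgf8, Fgf9 and Fgf17, had adjusted p of 0.703, 0.399 and 0.421, and Fgfbp3, a carrier of FGFs, 0.866. Fgf8 had a narrow range, between -0.52 and 0.53 with an SE of 0.32. Fgf9 had a wide one, between -2.42 and 1.83, with an SE of 0.85, and its adjusted p was 0.0415 with dye orientation as a covariate.

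**Figure D3:**
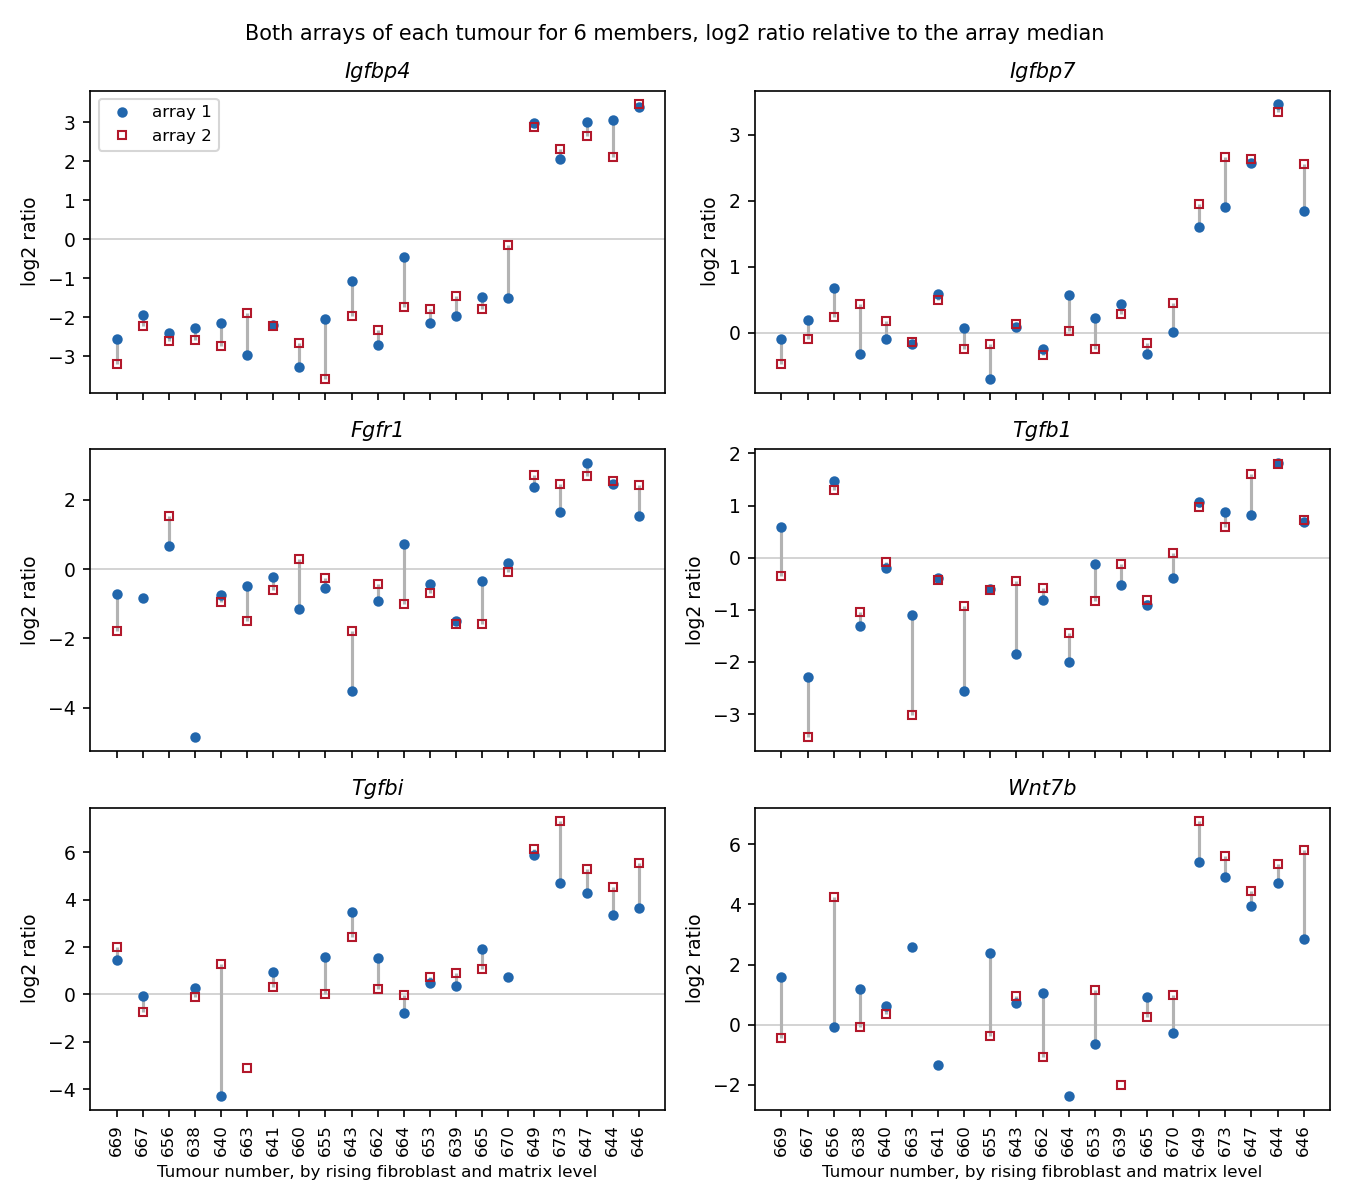
Both arrays of each tumour (circle and square, joined by a line; log2 ratio relative to the array median, sign by convention) for 6 genes that kept their call in every setting tried. Tumours are in the order of their fibroblast and matrix level along the x axis; the last 5, tumours 649, 673, 647, 644 and 646, are high on both arrays in each panel, and for Tgfb1 tumour 656 is as high as they are.

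In the TGF-beta family the ligand Tgfb1 ran from -2.87 in tumour 667 through -0.40 to 1.81 in tumour 644 (SE 0.40; adjusted p = 1.8e-05). Tumour 656, at 1.39, was second, ahead of tumours 647, 649, 673 and 646 (1.21, 1.02, 0.73 and 0.70). Tgfbr2, the receptor that first binds the ligand, ran from -3.62 in tumour 664, on a single array, through -0.98 to 3.09 in tumour 646 (SE 0.63; adjusted p = 2.5e-04). The 5 tumours named above were at 1.91 to 3.09 and all others at -0.36 or below; Tgfbr2 had 2 readings at the repeated top value, and keeping them raised its adjusted p to 0.266. Tgfbr3 (betaglycan), which presents the ligand to Tgfbr2, was measured in 19 tumours, from -4.69 in tumour 639 to 0.18 in tumour 649 (SE 0.65; adjusted p = 0.0279). That call ended without either array of tumour 649 (0.0617 and 0.0642) and on the deposited scale (0.163). Tgfb2 and Tgfb3 did not pass, at 0.605 and 0.548.

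Tgfbi, a matrix protein named for its induction by TGF-beta, had one of the widest spans of the set. In 19 tumours it ran from -3.11 in tumour 663, on a single array, through 0.80 to 6.01 in tumour 649 (SE 0.82; adjusted p = 1.7e-04). Tumours 644, 646, 647, 649 and 673 read 3.94, 4.59, 4.79, 6.01 and 6.0, and the next highest was tumour 643 at 2.95. The arrays of tumour 640 disagreed, at -4.30 and 1.27.

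All 3 Wnt ligands that passed the filter differed, out of 18 Wnt ligand symbols on the array. Wnt7b, an epithelial Wnt ligand, was measured in 19 tumours and ran from -2.37 in tumour 664, on a single array, through 0.60 to 6.09 in tumour 649 (SE 0.87; adjusted p = 0.00119). Tumours 644, 646, 647, 649 and 673 read 5.03, 4.34, 4.21, 6.09 and 5.27, against at most 2.59 in the other 14 measured. That 2.59, in tumour 663, rests on a single array. Single arrays overlapped: those of tumour 656 read -0.08 and 4.25, and those of tumour 646 read 2.86 and 5.82. Wnt7a, its close relative, did not share this order: it ran from -2.23 in tumour 638 to 1.05 in tumour 660, on a single array (SE 0.39; adjusted p = 0.00434). It was 0.12 to 1.05 in the 8 tumours with a second-series array and -2.23 to 0.73 in the others, and its adjusted p was 0.204 on the deposited scale. Wnt9b, known from kidney and craniofacial development, ran from -1.50 to 1.28 (SE 0.40; adjusted p = 0.0347), a call that ended in 5 of 11 other settings.

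Of the Wnt receptors and inhibitors, Fzd9 ran from -0.32 in tumour 664 through 1.06 to 3.96 in tumour 673 (SE 0.40; adjusted p = 0.00246). Tumour 673 stood apart, with arrays at 3.31 and 4.62, and the next tumours, 643 and 667, were at 2.87 and 2.85 on 1 array each. The call ended with quantile normalisation (0.125) and with the 1 top value kept (0.719). Fzd7, a Frizzled receptor of mammary stem and basal cells, lay between -0.64 (tumour 673) and 2.26 (tumour 664; adjusted p = 0.0520; 0.0369 without tumour 656). It was 0.83 to 2.26 in the tumours with a second-series array and -0.64 to 1.60 in the others. Sfrp2, a secreted Wnt antagonist of fibroblasts, ran from -3.46 in tumour 639 through -1.10 to 0.53 in tumour 673 (SE 0.46; adjusted p = 0.00517; 0.189 on the deposited scale). Dkk2, which binds the Wnt co-receptors, was just under the threshold at 0.0495 and crossed it without any one of 30 of the 42 arrays. Sfrp1 did not pass (0.519).

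Of the BMP symbols, 2 of 6 ligand symbols and neither receptor passed. Bmp7, a ligand of epithelial tissue, ran from -1.74 in tumour 670 through 0.18 to 1.30 in tumour 644 (SE 0.51; adjusted p = 0.0338), and 10 of 42 left-out arrays ended the call, with adjusted p up to 0.0632. Bmp2k is a kinase named for its induction by BMP2 and not a ligand. It lay between -2.07 (tumour 656) and 0.45 (tumour 670; adjusted p = 0.0391; 0.0846 without tumour 656). That call ended in 5 of 11 other settings, among them quantile normalisation (0.259) and the slide series as a block (0.0840), and without any one of 25 of the 42 arrays. Bmp2, Bmp4, Bmp5 and Bmp6 had adjusted p of 0.374, 0.168, 0.0983 and 0.578, and the receptors Bmpr1a and Bmpr2 had 0.142 and 0.0796. Bmp5 passed without tumour 656 (0.0237) and with its 1 top value kept (8.29e-07). Bmpr2 passed without either array of tumour 664 (0.00272 and 0.00188), without 1 array of tumour 663 (0.0361), and where both arrays of all 21 tumours were required (0.0400). Bmp4 was below 0 in all 21 tumours, from -3.50 in tumour 646 to -0.02 in tumour 673.

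Among the PDGFs, Pdgfb ran from -1.26 in tumour 669 through 0.22 to 2.62 in tumour 660, where the arrays read 3.03 and 2.21 (SE 0.50; adjusted p = 0.0336). It was 0.12 to 2.62 in the tumours with a second-series array and -1.26 to 0.61 in the others, and with the series as a block its adjusted p was 0.190; on the deposited scale it was 0.723. Pdgfa, a ligand for Pdgfra, which is a receptor of fibroblasts, ran from -1.69 in tumour 641 through -0.27 to 1.89 in tumour 647. Tumours 644, 646, 647, 649 and 673 read 1.59, 1.51, 1.89, 1.24 and 1.72 and the highest of the rest was tumour 670 at 0.14. Its adjusted p was 0.0471, with an SE of 0.72, and the left-out arrays gave 0.000168 to 0.0885. The call ended without any one of 35 of the 42 arrays and in 6 of 11 other settings, among them the deposited scale (0.285) and the slide series as a block (0.0702). The arrays of tumour 667 were the farthest apart, at 1.81 and -3.62, so its mean of -0.90 averages opposed readings. Its first array lay within the range of the 5 tumour means just given. The arrays of tumour 660 also disagreed, at -3.13 and 0.14. Pdgfc and Pdgfra did not pass, at 0.0649 and 0.120.

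The VEGF ligands, which drive vessel growth, did not pass. Vegfa, the main hypoxia-induced ligand, had values from -1.42 in tumour 641 to 0.94 in tumour 663 (SE 0.48; adjusted p = 0.0528; 0.000941 with dye orientation as a covariate). In the 8 tumours with a second-series array it was -1.31 to 0.94 and in the other 13 it was -1.42 to 0.14. Vegfc, the lymphatic ligand, had values from -3.83 in tumour 656 to 3.44 in tumour 660, each on a single array (SE 0.77; adjusted p = 0.197). Vegfb was below 0 in all 21 tumours (adjusted p = 0.898). Egfr, the receptor of EGF and amphiregulin, lay between -0.49 and 1.02 (SE 0.42; adjusted p = 0.594), though on the deposited scale its adjusted p was 0.00476. No Inhb symbol, of 4 on the array, passed the filter, and amphiregulin is not analysed here.

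The genes named above as high in tumours 644, 646, 647, 649 and 673 were next set against marker lists of cell types, each summed up as the mean deviation of its measured genes. The fibroblast and matrix level (12 of 20 listed genes measured, among them Col1a1, Col3a1, Sparc and Vim, all 12 differing between tumours) fell into 2 separate components: 2.34 to 3.71 in those 5 tumours and -2.11 to -0.19 in the other 16. For 3 other lists the range in these 5 tumours did not overlap that in the other 16. The macrophage level (12 of 16 genes measured) was 1.41 to 1.79 against -1.65 to 0.44, and the endothelial level (5 of 16) was 0.43 to 1.80 against -1.28 to 0.29. The epithelial level (13 of 20) was -2.01 to -0.55 against -0.42 to 1.33. These gaps are not all as wide: the endothelial level formed a single component, and tumour 644, at -0.55, fell into the larger epithelial component with the other 16. The adipocyte level (6 of 12) overlapped, at -0.88 to 0.66 against -1.34 to 1.00, as did the myoepithelial and smooth muscle level (4 of 10), at 0.21 to 2.15 against -1.71 to 0.44. Of the measured markers, 10 macrophage (83.3%), 9 epithelial (69.2%) and 3 myoepithelial and smooth muscle genes (75.0%) differed between tumours. Only 1 endothelial gene, Emcn (20.0%), and 1 adipocyte gene, Car3 (16.7%), differed, against 25.9% of all genes. The part of each cell type in the values of the growth factor genes was not tested. The 10 arrays of the 5 tumours measured 13078 to 21328 probes and those of the other tumours measured 8600 to 20900; 3 of the 10 were on the first slide series and 7 on the third.

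In 9 of the 45 genes each of these 5 tumours lay above all others, against 6.24% of 7563 genes that were measured in all 5 and are not in the matrix list, and in none did all 5 lie below, against 2.13%. The 9 were Igfbp4, Igfbp7, Fgfr1, Fgfr1op2, Tgfbi, Tgfbr2, Wnt7b, Pdgfa and Bmpr2, a receptor of BMP ligands. Means of Bmpr2 were 0.82, 0.57, 0.41, 0.37 and 0.38 in tumours 644, 646, 647, 649 and 673 and -0.10 or less in the others. Among the others, tumour 664 had Bmpr2 arrays far apart, at 1.12 and -1.56, and the first of these was above all 5 means. Fzd7 ran the other way, with 4 of the 5 below every other tumour and tumour 646 inside the range of the rest at 0.51. For Igfbp5, Wnt7a, Igf2r, Pdgfb and Dkk2 the 5 lay within the range of the others. Wnt7b, Tgfbr2, Igf1r and Tgfbr3 passed the filter with both arrays in 15 tumours, the fewest allowed. All their blanks were outside these 5 tumours, in which their levels were mostly higher. Counts of the set that include these genes are therefore not independent of the filter.

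Over all 21 tumours, 17 of the 45 genes rose with the fibroblast and matrix level (37.8%; limma slopes, adjusted p under 0.05 over 7617 genes), against 14.6% of all genes, and 2 fell (Fzd7 and Igf2os), against 10.8%. The steepest were Igfbp4, at 1.18 log2 units per unit of the level (SE 0.075; adjusted p = 1.5e-10), Tgfbi at 1.10 (SE 0.18), Wnt7b at 1.01 (SE 0.20) and Tgfbr2 at 0.94 (SE 0.12). Bmpr2, Pdgfc, Igf1r and Igfbp6, which did not pass the test between tumours, had slopes of 0.29, 0.43, 0.34 and 0.30 (adjusted p = 1.9e-05, 0.0013, 0.0031 and 0.014). With the epithelial level 15 genes fell (33.3%), against 13.3% of all genes, and 2 rose, again Fzd7 and Igf2os, against 10.3%. Igfbp4 fell by 2.08 per unit of the epithelial level (SE 0.23; adjusted p = 1.3e-06), and Pdgfa fell by 1.10 (SE 0.13; adjusted p = 2.2e-06). On the deposited scale 7 of the 45 genes had a slope on the epithelial level past the threshold, which is 15.6% against 21.8% of all genes, so the higher share seen after centring was not present there.

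The slopes on the matrix level were also fitted without the gap between the 5 tumours and the rest. Among the 16 tumours of the larger component no gene of the set had a slope past the threshold (limma, 7 with unadjusted p under 0.05), and 0.433% of all genes did. In these 16 the sign of the slope was that over all tumours for 26 of the 45 genes. Igfbp4 had a slope of 0.62 (SE 0.22) and Wnt7b one of -1.06 (SE 0.55). The level spans only -2.11 to -0.19 there, so this fit cannot decide whether the slopes rest on the gap alone. In the 8 tumours with both arrays on the third slide series, 3 of which are among the 5, 11 of the 45 genes passed (24.4%, against 10.9% of all genes) and all 11 rose. Within the larger component of the epithelial level, of 17 tumours that include tumour 644, 3 of the 45 genes passed (Fgfr1, Igf2r and Pdgfa; 6.67%), near the 5.63% of all genes.

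**Figure D4:**
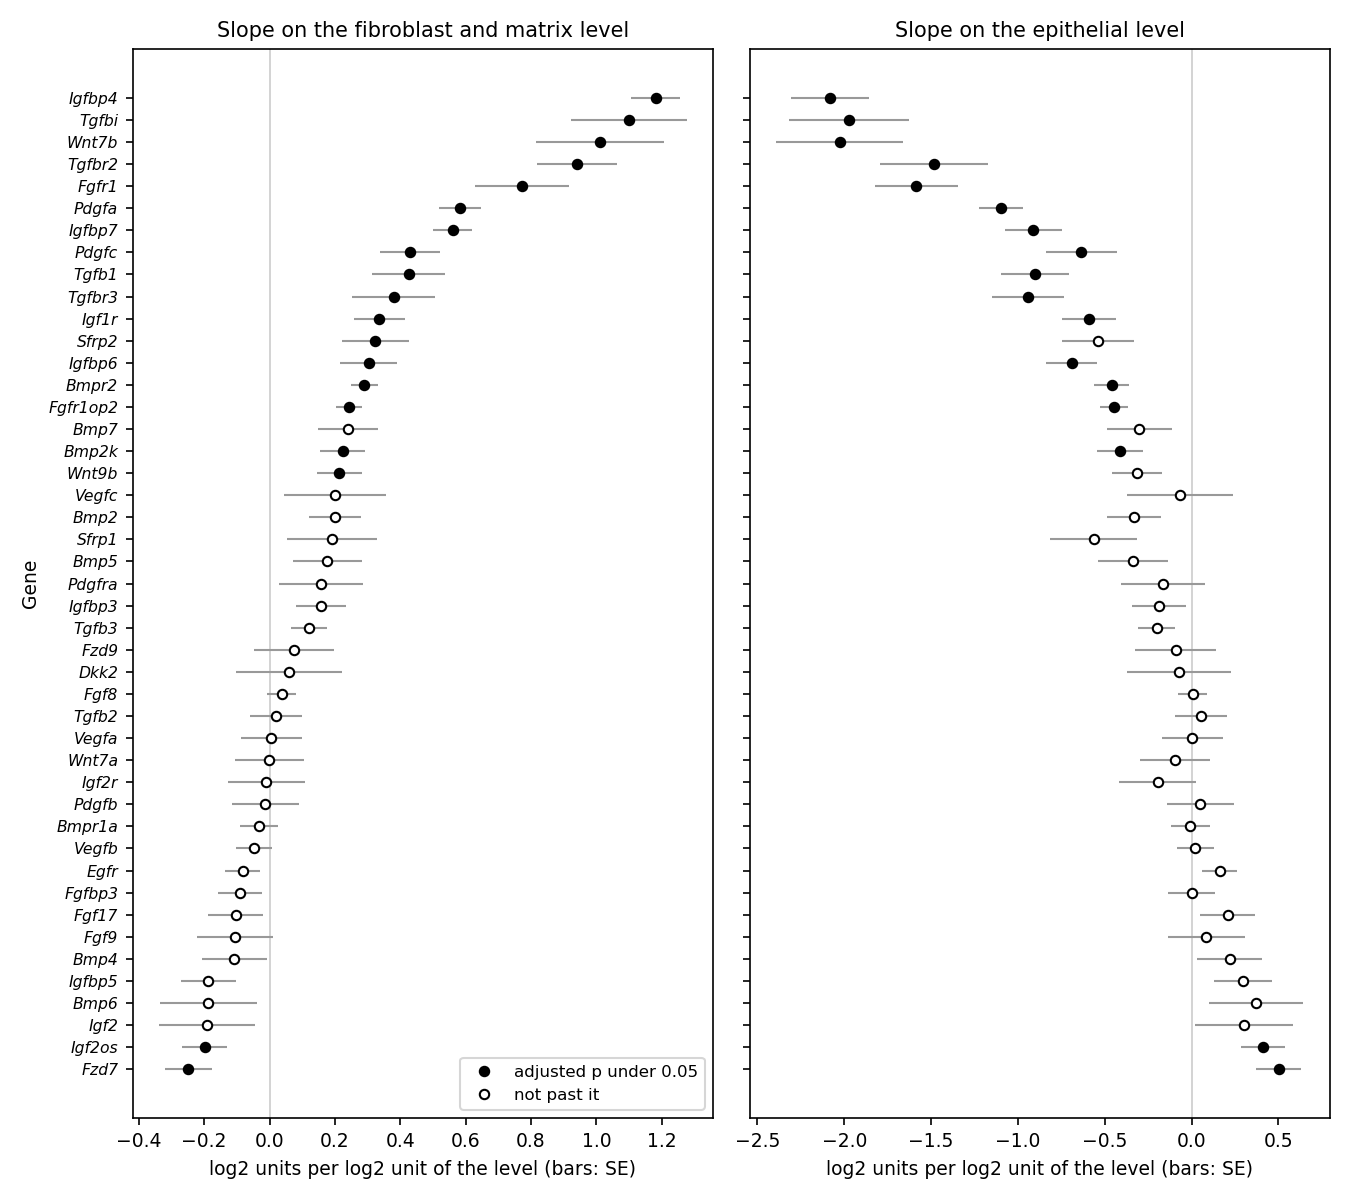
Slope of each of the 45 genes on the fibroblast and matrix level (left) and on the epithelial level (right) over the tumours measured, in log2 units per unit of the level, with bars of 1 SE; filled circles have adjusted p under 0.05 in limma. Igfbp4, Tgfbi and Wnt7b have the steepest slopes on both sides with opposite signs, and Fzd7 and Igf2os run the other way.

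Ligands were set against their receptors over tumours in 13 pairs with both genes measured (Pearson, 100000 permutations, two-sided, adjusted over the 13). Of these, 5 passed. For 3 of them the receptor, Tgfbr2 (with Tgfb1 and Tgfb3) or Bmpr2 (with Bmp7), had the 5 tumours apart from the rest, so no pooled correlation is given. Among the other 16 tumours, a grouping chosen after the data were seen, r was -0.12 for Tgfb1, 0.15 for Tgfb3 and 0.094 for Bmp7, and adjusted p was 0.729 for each. Bmp2 and Bmpr1a gave r = -0.569 (adjusted p = 0.0366), which rested on tumours 660 and 663: without them r was -0.25. On the deposited scale it was 0.043.

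Vegfa and Kdr, its signalling receptor on endothelium, ran opposite to each other, with r = -0.564 (adjusted permutation p = 0.0366) and rho = -0.626 (0.0359) over 21 tumours. Without tumours 663 and 665 r was -0.581 (adjusted permutation p = 0.0677), among the 16 tumours it was -0.686 (0.0484), without tumour 656 -0.515 (0.0553), and on the deposited scale -0.426 (0.142). In the 8 tumours with both arrays on the third series it was -0.234; the other series hold 5 tumours or fewer of their own. The 8 tumours with a second-series array had a median of 0.35 for Vegfa and 0.20 for Kdr, and the other 13 had -0.79 and 0.76. In tumours 660, 664 and 665 the second-series array read -1.64, -0.92 and 0.15 for Kdr and the third-series array 0.57, 0.52 and 0.41. For Vegfa these arrays read 0.66, 0.09 and -0.07, and -0.01, 0.54 and 1.59. The part of the slide series in this relation was not tested. Kdr lay between -0.60 and 1.53 with an SE of 0.49 and did not itself differ between tumours (adjusted p = 0.344), so much of the spread of both genes is within the hybridisation error. None of the 13 pairs passed once the 2 tumours farthest from the median of the ligand were left out.

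**Figure D5:**
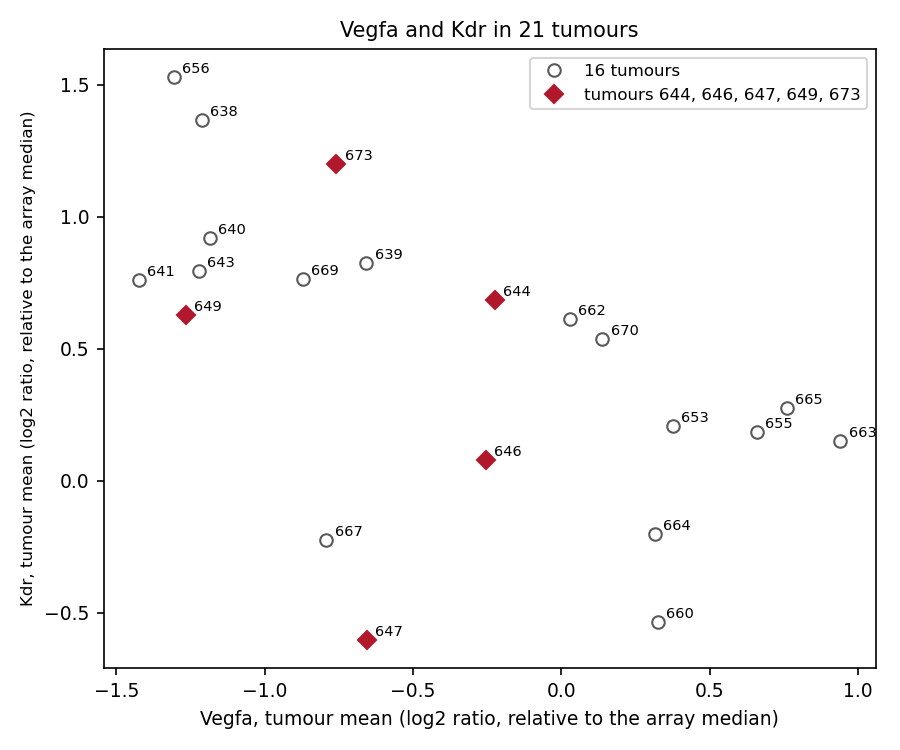
Tumour means of Vegfa (x axis) and Kdr (y axis), both log2 ratios relative to the array median, sign by convention; each point is a tumour with its number, and diamonds are the 5 tumours with the high fibroblast and matrix level. The points run from upper left to lower right, and tumours 647 and 667 lie below that line.

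Genes that act further along these pathways were taken from lists, and the F test gives them no direction. All list counts stand against 25.9% of all genes. In the FGF list 7 of 8 measured genes differed (87.5%). Dusp6, a phosphatase induced by FGF and ERK signalling, was measured in 20 tumours and ran from -4.81 in tumour 664, on a single array, through -1.13 to 1.70 in tumour 647 (SE 0.44; adjusted p = 3.5e-06). The feedback inhibitor Spry2 ran from -3.85, also on a single array, to 0.60. The 5 tumours high for Fgfr1 read 0.49 to 1.70 for Dusp6, and tumours 656 and 669 lay in the same range, at 1.03 and 0.81. For Spry2 the same 5 read -0.78 to -0.15, within the range of the others. The F test gave Spry2 an adjusted p of 0.00084, which became 0.073 after quantile normalisation and 0.0744 with the repeated top value kept. Among genes of TGF-beta and BMP signalling, 13 of the 17 measured differed (76.5%). The SMAD repressor Ski was lowest in tumour 663 (-2.73) and highest in tumour 647 (1.42; adjusted p = 1.1e-06). Fstl1, a secreted follistatin relative, was lowest in tumour 656 (-4.20) and highest in tumour 646 (2.05; adjusted p = 1.4e-06). For both, tumours 644, 646, 647, 649 and 673 were the highest 5.

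In the IGF list 5 of 10 differed (50%), among them Htra1, a secreted protease that cuts IGF binding proteins. Its level was -1.26 in tumour 669 and 2.51 in tumour 649 (adjusted p = 9.0e-06), with the same 5 tumours at 1.51 or above and the others at -0.44 or below. In the Wnt list 4 of 14 differed (28.6%, near the share of all genes). Ctnnb1, which encodes beta-catenin, was lowest in tumour 641 (-1.66) and highest in tumour 663 (1.79; adjusted p = 3.5e-04). In the tumours with a second-series array Ctnnb1 was -0.62 to 1.79 and in the others -1.66 to 0.81. In the list of VEGF receptors and hypoxia genes 2 of 8 differed (25.0%, a share near that of all genes), Hif1a and the co-receptor Nrp1. Nrp1, measured in 17 tumours, was highest in tumour 647 at 2.60 and lowest in tumour 665 at -3.07 (adjusted p = 0.00544). The arrays of tumour 665 disagreed, at -0.35 and -5.78. In the EGF list 3 of 8 differed (37.5%), of which Lrig1 and Errfi1 are inhibitors of the EGF receptor, with adjusted p of 0.00314 and 0.00483.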

How the data were processed

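Labelled cDNA of 21 tumours was hybridised on 42 arrays. The values the authors deposited were read as log2 ratios between the dyes from their range and signs. The labels' protocol gives no image processing, normalisation or dye orientation. Of 726515 deposited values, 15512 at a repeated top value were set missing. Array pairs were turned by the first eigenvector of the differences between the arrays of a pair. Each array was centred on its median over 9638 tested probes, since this lowered the median standard deviation between the 2 arrays of a tumour from 0.914 to 0.685. Probes of a gene were averaged, with names from the platform annotation. Tumours were compared with limma 3.58.1 in R 4.3.3 (one-way model, empirical Bayes F test, checked on simulated data), with the error of each tumour mean taken from its 2 arrays. Marker levels were split with mclust 6.1.1, and slopes fitted with limma on tumour means. The deposited scale, other normalisations and filters, slide series, dye orientation and left-out arrays were tried. Genes were named where they differed, belonged to a tested pair, or led a pathway list. Members, lists and tests were chosen with earlier results of these data known.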

Additional observations from a re-analysis of the deposited data

How the results depend on the processing

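Of the 20 genes that differed, 6 kept their call in all 11 other settings in which they could be tested and without each of the 42 arrays in turn: Igfbp4, Igfbp7, Fgfr1, Tgfb1, Tgfbi and Wnt7b. The count of 20 became 13 on the deposited scale (28.9%, against 18.9% of all genes), 9 after quantile normalisation (20.0% against 14.4%) and 13 with the slide series as a block (28.9% against 18.1%), and 14 to 25 with an array left out. With both arrays of only 10 or more tumours required, 16 of 74 symbols differed (21.6%), near the 18.1% of all genes. Over all genes the count of 1978 became 1098 after quantile normalisation, 1198 of 3326 with both arrays of all 21 tumours required, and 2981 with dye orientation as a covariate. Slopes on the fibroblast and matrix level passed for 19 genes, for 11 within the third slide series and for 0 within the larger component. Slopes on the epithelial level passed for 17, for 7 on the deposited scale (15.6%, below the 21.8% of all genes) and for 3 within the larger component. The 5 related pairs became 3 on the deposited scale, 3 without tumour 656, 0 without the 2 farthest tumours and 1 within the 16 tumours, a setting added after the data were seen. Where a value has no other statement beside it, the cause was not tested.

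Dim probes and blank cells set the limits. A median of 7.69% of a gene's values were ratios of small whole numbers, and most Wnt, FGF and Frizzled symbols were measured in too few tumours to be tested. With 2 arrays a tumour, differences near the SE of a tumour mean could not be resolved. By array number, no paired analysis was possible because these numbers only name a tumour's arrays in accession order and pair nothing across tumours. The 2 arrays of each tumour did have opposite inferred dye orientations, and this orientation was fitted as a covariate. With it 25 of the 45 genes differed between tumours, against 20 in the main setting.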

Other observations

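Of the 29 symbols measured on both arrays of 10 to 14 tumours, 2 differed between tumours when the filter was lowered to 10 (limma, adjusted over 10119 genes, of which 18.1% differed). Bmp1, which despite its symbol is a protease that trims procollagen, ran from -2.84 in tumour 664 to 4.14 in tumour 667 over 20 tumours (adjusted p = 7.6e-06). Tumours 644, 646, 647, 649 and 673 read 2.76, 2.27, 3.01, 2.12 and 1.85. Pdgfrb, a receptor of fibroblasts and pericytes, ran from -4.01 in tumour 663 to 1.49 in tumour 647 over 19 tumours (adjusted p = 0.028), with those 5 tumours at 0.34 to 1.49 and tumour 656 at 1.31. Inhba, an activin chain, and Igf1, the ligand of Igf1r, had adjusted p of 0.0748 and 0.0805.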
